A study of Saccharomyces cerevisiae with 21 samples.

Results

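Gene expression in the strain BY4741ΔU (written ΔU) was compared with that in 2 strains that each lack 1 gene of the phosphate pathway, pho4Δ and pho84Δ, in place of the control strain BY4741. The comparison used 7 of the 21 libraries of the series: ΔU numbers 1 to 3 against the 4 libraries pho4Δ 1 and 2 and pho84Δ 1 and 2, taken as 1 group. The question was which parts of the wide ΔU response remain when the BY4741 libraries are left out. The series holds RNA sequencing of the budding yeast Saccharomyces cerevisiae, and these libraries belong to its second part, with BY4741 numbers 4 and 5 and 3 ume6Δ libraries. The labels do not say what ΔU alters, and they give no further genotype for the deletion strains. BY4741 is a common haploid laboratory strain that lacks the marker genes URA3, LEU2 and MET17, and these had 0 reads in all 12 libraries of the second part, the deletion strains included. Cultures grew at 30 °C in a defined medium that contained potassium phosphate at 7.2 mM and added potassium chloride at 50 mM, so phosphate was not withheld. Each strain's 2 or 3 cultures were inoculated from a single overnight culture, so a p-value here leaves out variation among independent isolates. In the pooled comparison, differences between pho4Δ and pho84Δ count as spread, beside those among sister cultures. The comparisons with BY4741 take their spread from all 12 libraries of the second part, ume6Δ included.

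PHO84 encodes the high-affinity phosphate transporter of the plasma membrane, and PHO4 encodes the transcription factor that switches on PHO84 and the other genes of the PHO regulon when phosphate runs low. A cell without PHO4 cannot raise these genes, whereas a cell without PHO84 takes up phosphate less well and is known to raise several of them even in rich medium. The deletions thus act on the pathway from opposite sides. Most of the groups described below lie outside that pathway: iron uptake, mitochondrial and amino acid metabolism, and the making of ribosomes.

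PHO4 had 1 and 2 reads in pho4Δ and stood at 75.02 and 84.7 RPM (reads per megaread of the library) in pho84Δ. PHO84 had 2 reads in each pho84Δ library and 1 read in each pho4Δ library. The 7 libraries held 12.6 to 25.9 megareads, so that 1 read was worth 0.0386 to 0.0793 RPM, and BY4741 numbers 4 and 5 held 15.5 and 16.1 megareads. Values below are RPM as deposited. Folds are differences of log2(RPM + 1) with the standard error from limma, and the added 1 RPM shrinks the folds of weakly expressed genes. A gene is written as having risen or fallen only where limma's Benjamini-Hochberg adjusted p was under 0.05.

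Most of the ΔU response was also seen against the deletion strains. Of 5707 genes tested against pho4Δ and pho84Δ, 3346 were called (58.6%), 2303 of them higher (40.4%) and 1043 lower (18.3%). Against BY4741, 2904 of 5840 genes were called (49.7%), 2133 higher (36.5%) and 771 lower (13.2%). Of the 2893 genes called against BY4741 that were tested in both comparisons, 2566 (88.7%) were also called, in the same direction, against the deletion strains, and 0 were called in the opposite direction. The share was 1865 of 2125 for rises and 701 of 768 for falls. Of the genes that differed from BY4741 by at least 1 on the log2 scale, 250 of 260 rises and all 17 falls tested were called again. A further 780 genes were called against the deletion strains only. Of the 2566 genes, 2208 were also called when ΔU was set against pho4Δ alone and against pho84Δ alone. Both comparisons share the ΔU libraries, so these counts describe and do not test. The libraries of the groups did not overlap for 59.0% of the genes tested against the deletion strains and for 59.7% of those tested against BY4741. Groups separate more readily with 2 control libraries than with 4, so these shares cannot be compared with each other.

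The balance of rises and falls depended on the scaling. On the RPM scale the median gene stood 0.13 above the deletion strains and 0.15 above BY4741 on the log2 scale. With TMM scaling, which sets the bulk of genes equal, the medians were 0.02 and 0.02. The calls then split into 1717 higher and 1613 lower against the deletion strains, and into 1360 and 1396 against BY4741. Medians of gene groups below are to be read against 0.13 and 0.15. Counts of members called against the deletion strains are to be read against 40.4% of all genes higher and 18.3% lower. Those against BY4741 are to be read against 36.5% and 13.2%. TMM counts are given for the groups whose lean they change.

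Few genes separated the mean of the pooled deletion strains from BY4741. The mean of pho4Δ and pho84Δ against BY4741 gave 14 calls (0.24%), 8 higher and 6 lower, with 799 genes at an unadjusted p under 0.05. A change in only 1 of the 2 strains is diluted in this mean, and opposite changes can cancel, so the count does not show that each strain equals BY4741. Among the 14 were PHO4 and PHO84 themselves, and COS7 and PHO5, for which 1 deletion strain stood near BY4741. The count of 14 depended on the libraries: it was 205 without BY4741 number 4, 9 without BY4741 number 5 and 8 without pho84Δ number 1. DESeq2 gave 53 calls, edgeR 10, and limma on only the 6 libraries of the 3 strains 2.

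**Figure D1:**
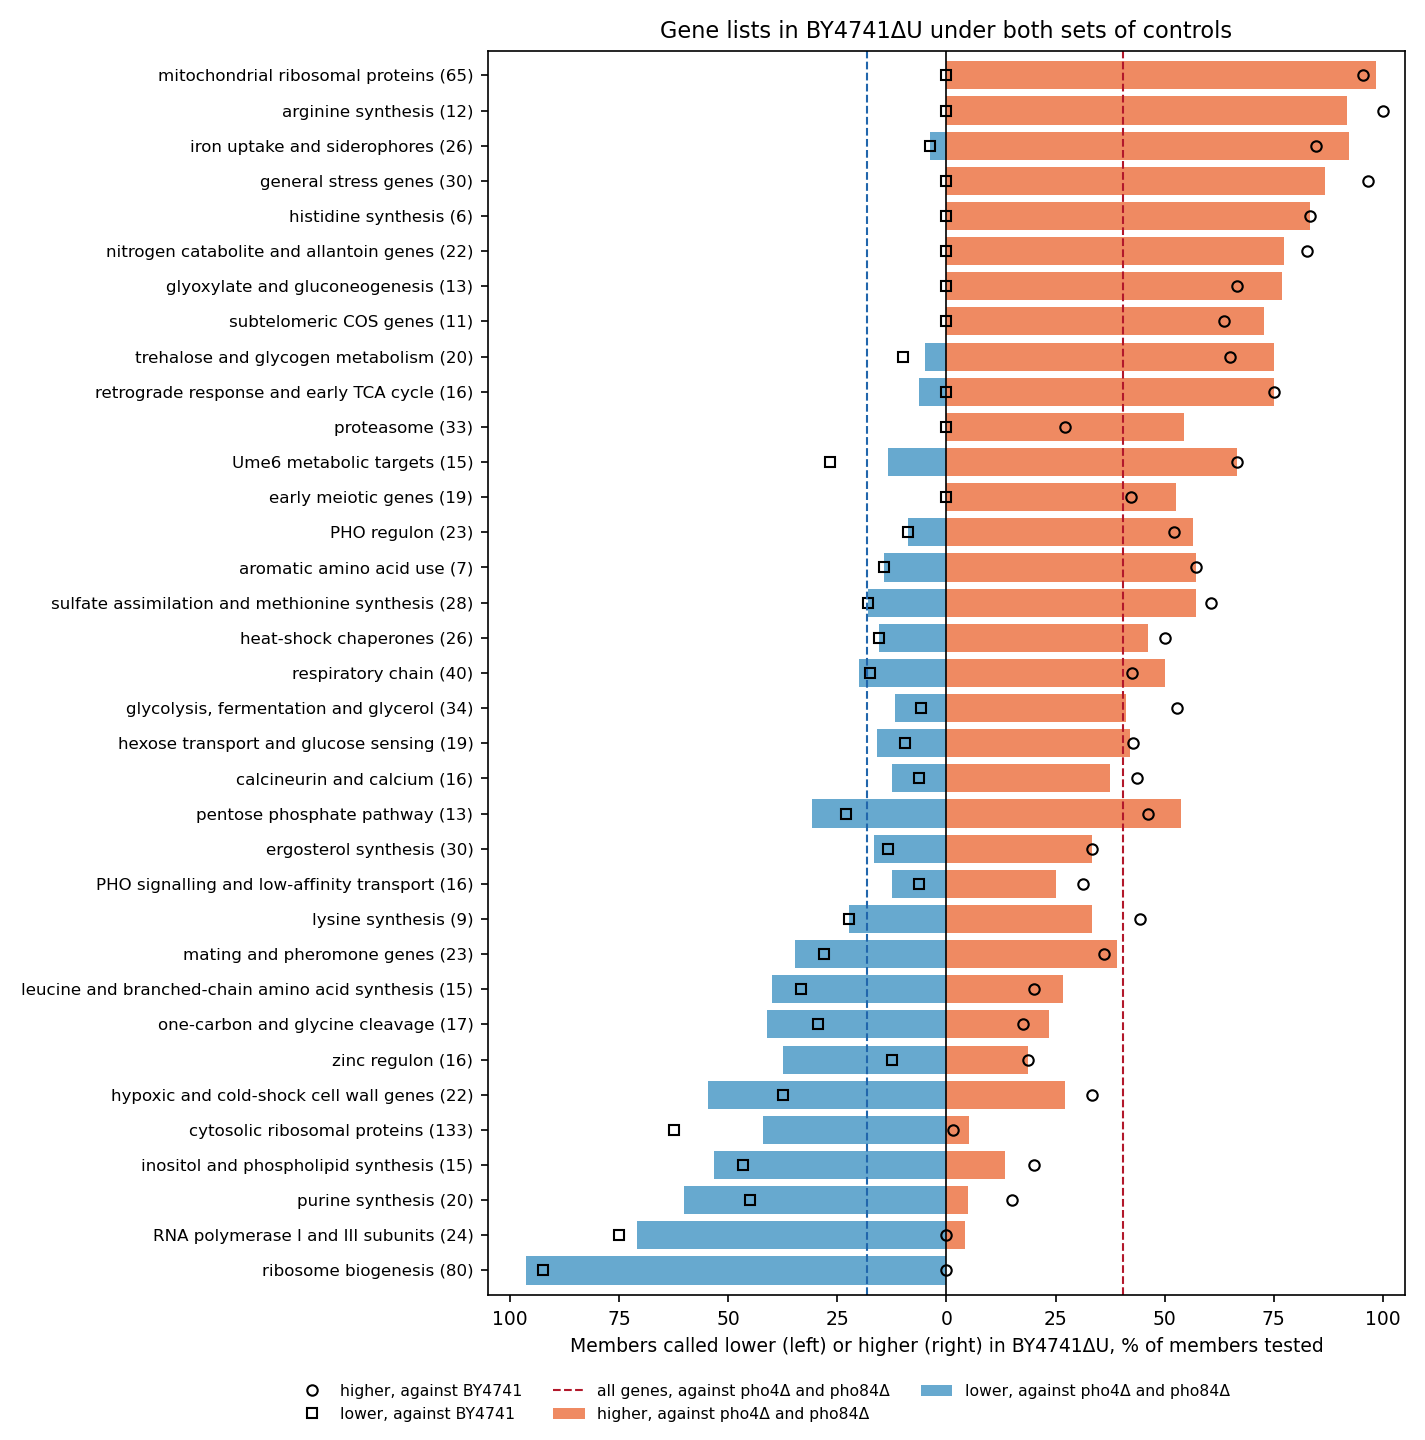
Share of the members of 35 gene lists with at least 6 tested members (number in parentheses) that were called higher (right) or lower (left) in BY4741ΔU, in percent. Bars are the comparison with pho4Δ and pho84Δ, open circles (higher) and squares (lower) the comparison with BY4741, and dashed lines the share of all genes tested against the deletion strains; ribosome biogenesis (77 of 80 lower) and mitochondrial ribosomal proteins (64 of 65 higher) stand at the ends under both sets of controls.

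Iron acquisition was among the groups that held in full. Yeast takes up iron by reducing it at the cell surface, by a high-affinity oxidase and permease pair, and by importing siderophores, iron chelators made by other microbes. These genes are switched on by the factor Aft1 when iron is short, through a core element in their promoters. Of 26 genes of iron uptake and siderophore use that were tested, 24 were higher in ΔU than in the deletion strains and 1 was lower. Against BY4741, 22 were higher and 1 lower, and all 23 of these were called again without BY4741. Their median fold was 0.88 against the deletion strains and 1.04 against BY4741, beside 0.13 and 0.15 over all genes. A 27th member, FRE5, was too low to be tested. Under TMM scaling the count was 21 higher and 1 lower.

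Stretches of the promoters of 3 iron genes that rose most are shown with the Aft1 core, TGCACCC or its reverse complement, in capitals. They were read from the RefSeq genome of build R64 by systematic gene name, 100 to 500 bases before the start codon, and run 5′ to 3′ on the strand of the gene. The build that the authors aligned to is not given in the sources used here, and the positions are those of R64.
FIT2, XV:1059257-1059313, plus strand: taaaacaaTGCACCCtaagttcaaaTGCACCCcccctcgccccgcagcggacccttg
TIS11, XII:416876-416932, minus strand: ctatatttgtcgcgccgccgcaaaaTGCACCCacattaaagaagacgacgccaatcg
HMX1, XII:554097-554153, minus strand: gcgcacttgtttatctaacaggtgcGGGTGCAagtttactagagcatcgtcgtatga
The core was present on either strand in that window in 20 of the 26 tested iron genes, and in 1.96% of 5550 genes tested that have a coding sequence in R64. Of the 20 with the core 18 rose and 1 fell, and the 6 without it in this window (FRE1, AFT1, AFT2, FTH1, MRS4 and VHT1) rose too. As nearly all members rose, the calls could hardly differ between these sets. The median fold was 1.17 with the core and 0.52 without it, a difference that was not tested.

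FIT2, the gene of a cell wall mannoprotein that retains siderophore iron, stood at 9.92, 54.6 and 53.8 RPM in ΔU numbers 1 to 3. It stood at 2.88 and 6.47 RPM in pho4Δ, 5.24 and 3.89 RPM in pho84Δ and 4.201 and 3.67 RPM in BY4741. TIS11, whose product degrades messenger RNAs of iron-using proteins, stood at 16.8, 53.1 and 52.3 RPM in ΔU, 3.41 and 10.2 RPM in pho4Δ and 5.95 and 5.05 RPM in pho84Δ. For both genes ΔU number 1 was well below numbers 2 and 3, yet above every control library. The folds against the deletion strains were 2.56 ± 0.48 (adjusted p = 1.01e-03) for FIT2 and 2.46 ± 0.39 (adjusted p = 3.0e-04) for TIS11. HMX1, which encodes heme oxygenase, was even within ΔU, at 18.2, 23.1 and 22.5 RPM against 2.42 to 3.81 RPM in the deletion strains and 2.07 and 1.93 RPM in BY4741. Its folds were 2.43 ± 0.14 and 2.88 ± 0.16 against the 2 controls.

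Folds of the uptake systems themselves were smaller. FET3 and FTR1, the oxidase and permease of high-affinity iron uptake, stood at 406, 765 and 647 and 208, 364 and 320.3 RPM in ΔU. In the deletion strains they ranged over 160.4 to 339.7 and 93.4 to 177 RPM, with pho4Δ number 2 the highest for both and below every ΔU library. Their folds were 1.44 and 1.33 against the deletion strains and 1.72 and 1.52 against BY4741. SIT1, ENB1 and ARN1, siderophore transporters, rose by 1.93, 1.52 and 1.22. The copper genes CCC2 and ATX1, which load copper into Fet3, rose by 1.46 and 1.41, and VHT1, the biotin transporter that Aft1 also controls, by 1.51. AFT1 itself rose by 0.31 (adjusted p = 0.021), a call lost under TMM scaling. The 1 member that fell was FET4, a low-affinity transporter of iron and other metals that answers to iron, zinc and oxygen: 10.6, 10.96 and 7.696 RPM in ΔU against 26.8 to 30.1 RPM in the deletion strains, a fold of -1.47 ± 0.11 (adjusted p = 3.9e-06).

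**Figure D2:**
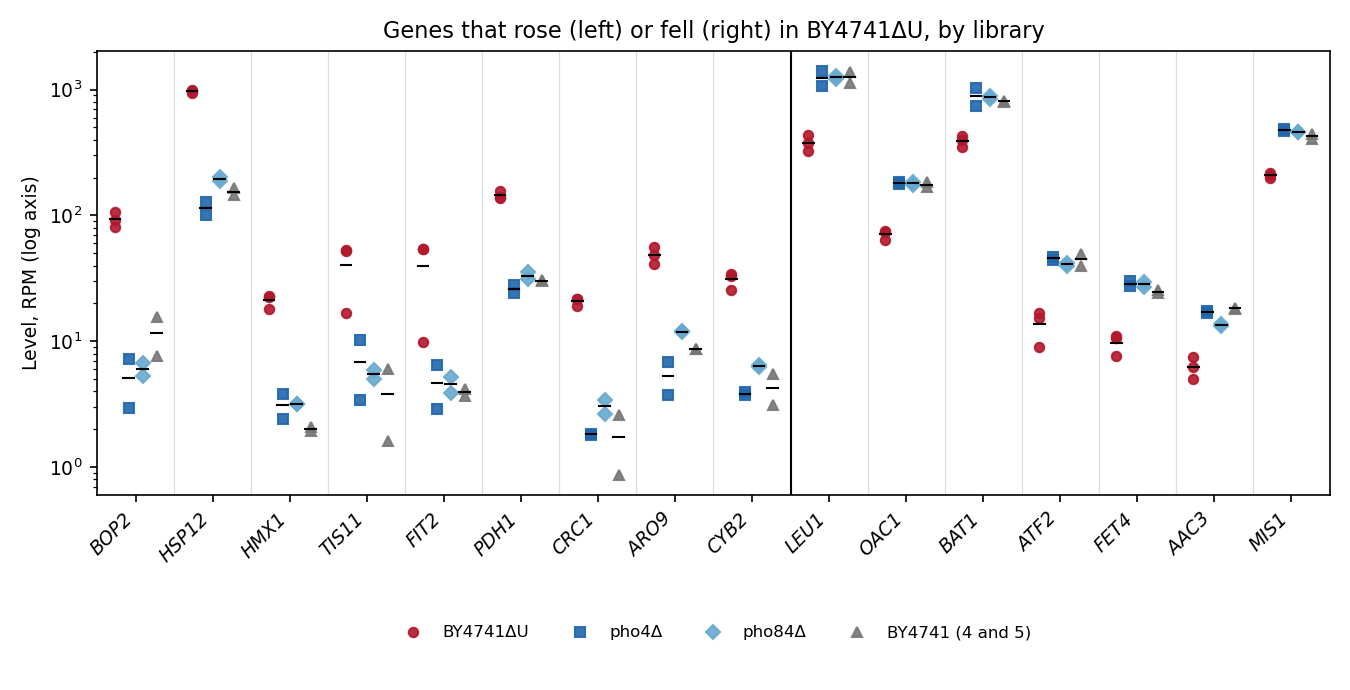
RPM on a log axis of 16 genes in each library of BY4741ΔU (circles), pho4Δ (squares), pho84Δ (diamonds) and BY4741 (triangles), with the mean of each strain as a bar; genes left of the line rose and genes right of it fell. HSP12 stood at 992, 978 and 947 RPM in ΔU and at 101 to 202 RPM in the deletion strains, and for all 16 genes the ΔU libraries lie outside the range of the 6 control libraries.

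Steep falls were seen in the leucine pathway. Leucine is made from a precursor of valine in a few steps, whose genes are activated by the factor Leu3 when the intermediate alpha-isopropylmalate is present. LEU1, which encodes isopropylmalate isomerase, an enzyme with an iron-sulfur cluster, stood at 376, 435 and 326 RPM in ΔU. It stood at 1407 and 1063 RPM in pho4Δ, 1219 and 1278 RPM in pho84Δ and 1126 and 1377 RPM in BY4741. The groups were far apart, with folds of -1.71 ± 0.11 (adjusted p = 1.4e-06) against the deletion strains and -1.72 ± 0.13 against BY4741. OAC1, a mitochondrial carrier that exports isopropylmalate, had 74.5, 75.6 and 63.9 RPM in ΔU and 175 to 185 RPM in the deletion strains (-1.33 and -1.29). BAT1, the mitochondrial branched-chain aminotransferase, had 399.6, 429.8 and 347 RPM and 743 to 1035 RPM (-1.16 and -1.05). LEU9, ILV5 and ILV3 fell by less than 0.5, and ILV3 was not called against BY4741 or against either deletion strain alone.

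The rest of the branched-chain list did not follow. Of its 15 members 6 fell and 4 rose against the deletion strains, and 5 fell and 3 rose against BY4741; all 8 of the latter were called again. BAT2, the cytosolic aminotransferase, rose by 0.38, ILV6 by 0.52 and LEU4, which encodes isopropylmalate synthase, by 0.57; LEU4 was not called against BY4741 (0.44, adjusted p = 0.054). ILV2, ILV1, GDH1, BAP2 and LEU3 itself were not called in either comparison, with folds between -0.06 and 0.11. Promoter stretches of LEU1 and BAT1 are shown with the Leu3 site (CCGG, any pair of bases, CCGG) in capitals.
LEU1, VII:478835-478894, minus strand: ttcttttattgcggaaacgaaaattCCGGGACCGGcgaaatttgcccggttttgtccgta
BAT1, VIII:517360-517419, plus strand: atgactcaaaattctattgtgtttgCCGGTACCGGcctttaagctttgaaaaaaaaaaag
The site was found in the window of 6 of the 15 members and in 0.252% of all 5550 genes. Of the 6, LEU1, BAT1 and ILV5 fell and ILV2, GDH1 and BAP2 were not called, and OAC1 had no such match in this window.

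**Figure D3:**
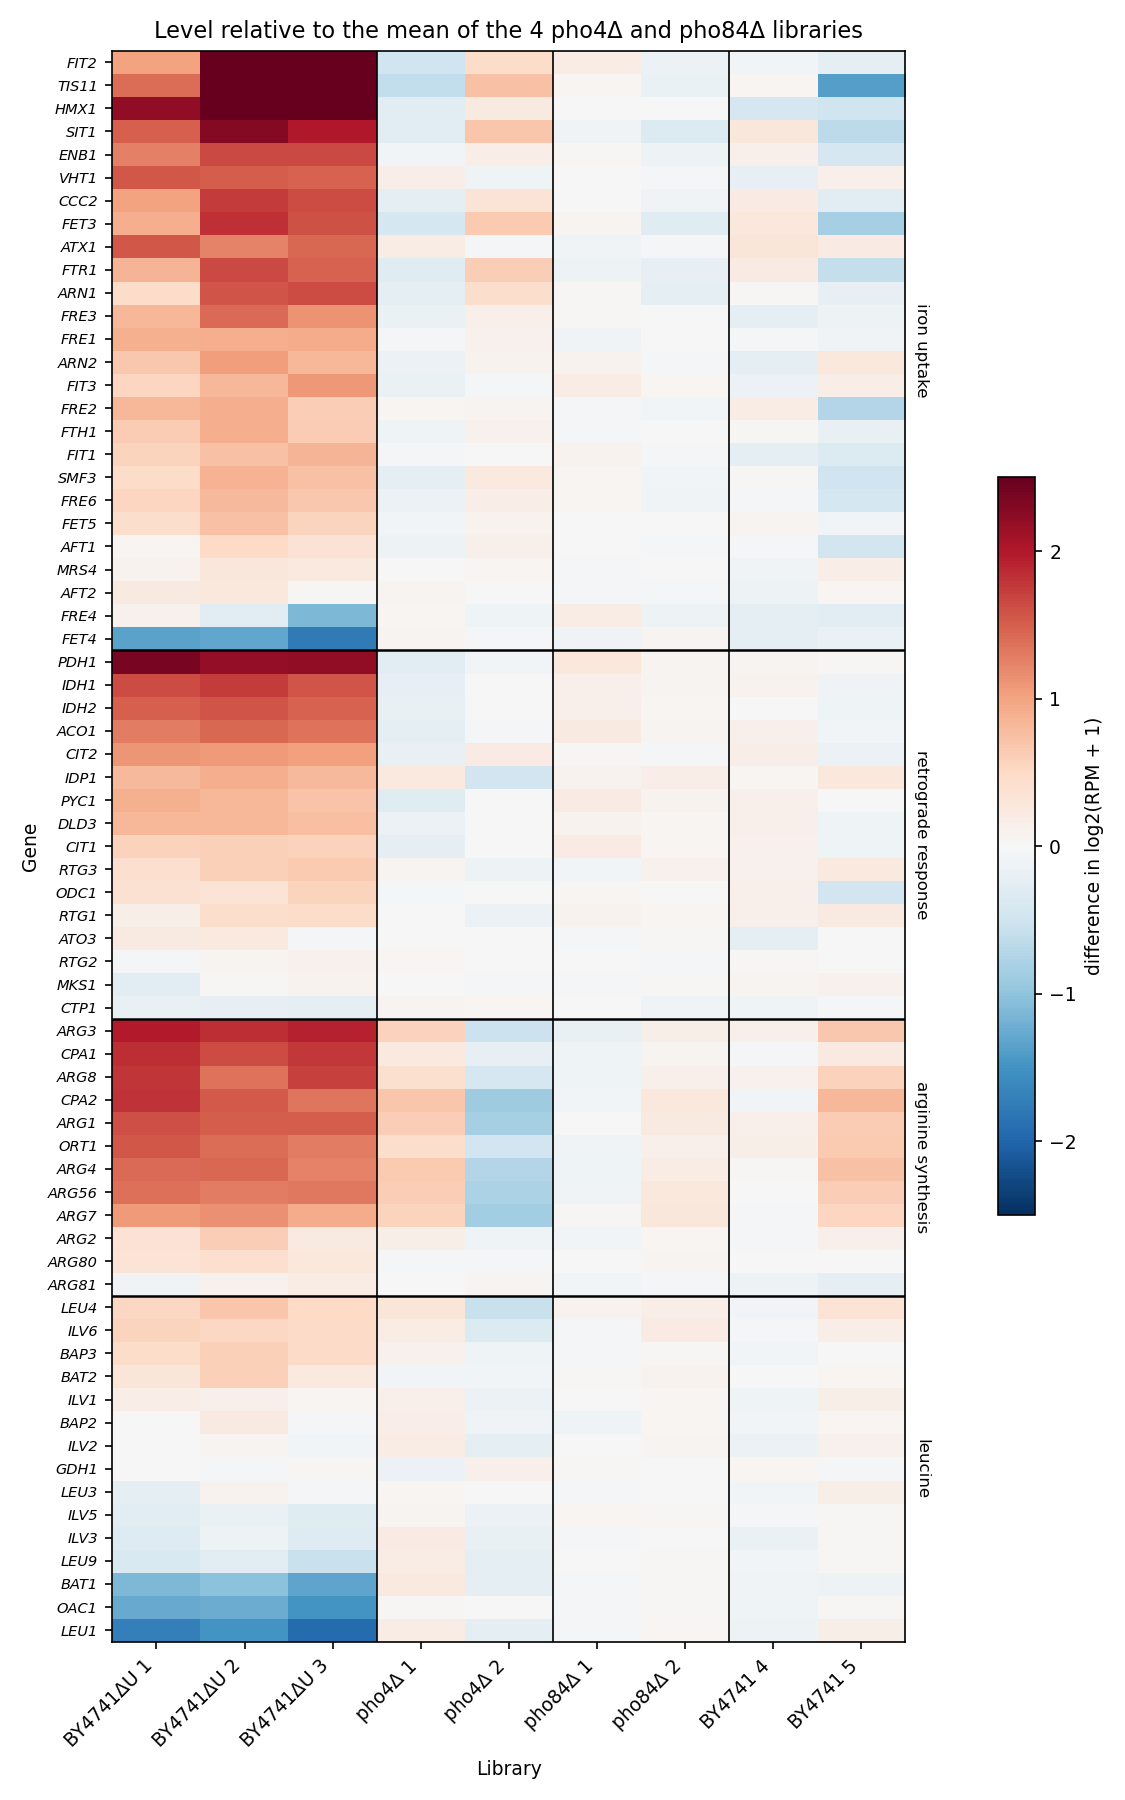
Each gene's log2(RPM + 1) in 9 libraries, less its mean over the 4 pho4Δ and pho84Δ libraries, for the tested genes of iron uptake, retrograde response, arginine synthesis and leucine synthesis, ordered by their fold; colours stop at a difference of 2.5. The ΔU columns stand apart for most iron, retrograde and arginine genes, and pho4Δ number 1 and BY4741 number 5 are higher than the other controls for most arginine genes.

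Genes of the first steps of the citric acid cycle rose together. In yeast these genes answer to the retrograde pathway, by which the nucleus responds to the state of mitochondria through Rtg1 and Rtg3, and they supply 2-oxoglutarate for making glutamate. Of 16 genes 12 rose (75%, beside 40.4% of all genes) and 1 fell against the deletion strains. Against BY4741 12 rose and 0 fell, and 11 rose in both comparisons. ACO1, the gene of aconitase, another enzyme with an iron-sulfur cluster, stood at 5559, 6171 and 5876 RPM in ΔU. It stood at 1921 and 2209 RPM in pho4Δ and 2659 and 2384 RPM in pho84Δ, a fold of 1.36 ± 0.10 (adjusted p = 3.5e-06). IDH1 and IDH2, which encode the subunits of NAD-dependent isocitrate dehydrogenase, rose by 1.65 and 1.52, with 1091, 1193 and 1059 RPM of IDH1 in ΔU against 306 to 389 RPM. CIT2, the peroxisomal citrate synthase used as the marker of the pathway, rose by 1.07, DLD3 by 0.81 and PYC1 by 0.81. Against BY4741 these 6 folds lay between 0.76 and 1.66. RTG2 and MKS1, the upstream regulators, were not called (0.04 and -0.04), and CTP1, the citrate carrier, fell by 0.21.

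All 3 genes of the methylcitrate pathway, which breaks down propionyl-CoA, rose in both comparisons. PDH1, the methylcitrate dehydratase gene, stood at 157, 138 and 140.0 RPM in ΔU, 24.2 and 28.1 RPM in pho4Δ and 35.6 and 31.03 RPM in pho84Δ. Its folds were 2.26 ± 0.11 and 2.22 ± 0.09. CIT3 and ICL2 rose by 1.72 and 0.69. Of 13 genes of the glyoxylate cycle and glucose formation 10 rose, led by MDH2 (1.45), the activator gene ADR1 (1.40) and PCK1 (1.40), and all 10 rose against BY4741 as well. CRC1, the mitochondrial carnitine carrier, was at 21.6, 21.6 and 18.96 RPM in ΔU against 1.82 to 3.44 RPM in the deletion strains and 2.59 and 0.8704 RPM in BY4741 (folds 2.68 and 3.07), and the carnitine acetyltransferase genes YAT2 and YAT1 rose by 2.17 and 1.75. CYB2, which encodes L-lactate dehydrogenase, rose by 2.42 and 2.63. CYC1 and NDE1, for cytochrome c and the external NADH dehydrogenase, rose by 1.88 and 1.71. The respiratory chain as a list did not share a direction. On the RPM scale 20 of 40 members rose (50%) and 8 fell (20%), beside 40.4% and 18.3% of all genes. Under TMM scaling 12 rose and 12 fell (9 and 12 against BY4741).

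Genes of arginine synthesis rose under both sets of controls. Of 12 genes 11 were higher than in the deletion strains and all 12 were higher than in BY4741; ARG81, a regulator gene, was the 1 that was not called again (0.06, adjusted p = 0.46). The median fold was larger against the deletion strains (1.39) than against BY4741 (1.02), beside 0.13 and 0.15 over all genes. Under TMM scaling 11 rose against the deletion strains and 8 against BY4741. ARG3, ornithine carbamoyltransferase, stood at 1155, 1049 and 1105 RPM in ΔU, 432 and 199 RPM in pho4Δ, 257 and 322 RPM in pho84Δ and 318 and 466 RPM in BY4741. The 2 pho4Δ libraries differed from each other more than the 2 pho84Δ libraries did, and BY4741 number 5 was above number 4, yet no control library reached the ΔU range. CPA1, a subunit of carbamoyl phosphate synthetase, had 1220.0, 1054 and 1161 RPM in ΔU and 293 to 400.1 RPM in the deletion strains (1.75 ± 0.10, adjusted p = 7.9e-07). ARG8 rose by 1.61, ARG1 by 1.54 and the ornithine carrier gene ORT1 by 1.41. The same spread between the pho4Δ libraries was seen in other amino acid genes that rose, such as HIS4 (2698, 2771 and 2494 RPM in ΔU, 1839.7 and 938 RPM in pho4Δ). Of 6 histidine synthesis genes 5 rose in both comparisons, but under TMM scaling 5 rose and 1 fell against the deletion strains and 2 rose against BY4741. Of 28 genes of sulfate assimilation and methionine synthesis 16 rose (57.1%) and 5 fell (17.9%), beside 40.4% and 18.3% of all genes. MET28 (activator subunit, 1.55) and STR3 (1.70) were the largest rises named, and the largest fall in the list was -1.14. The summed RPM of the list was lower in ΔU (3800, 3955 and 3807) than in the deletion strains (4605 to 4854). ARO9, the aromatic aminotransferase, was at 48.3, 56.6 and 41.02 RPM in ΔU against 3.75 to 12.1 RPM in the deletion strains (2.47 and 2.34). TMT1, which encodes trans-aconitate methyltransferase, rose by 2.36.

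Genes for the use of poorer nitrogen sources rose as well. Of 22 tested members 17 rose against the deletion strains (77.3%, beside 40.4% of all genes) and 0 fell. All 17 rose against BY4741. PUT4, the proline permease, was at 14.2, 18.01 and 16.5 RPM in ΔU against 3.12 to 6.02 RPM in the deletion strains (1.63). MEP2, the ammonium permease that also signals nitrogen state, rose by 1.01 against the deletion strains and 1.45 against BY4741. DAL3, an allantoin pathway gene, rose by 1.26. Under TMM scaling 16 rose and 1 fell. DAL1 and DAL80 were called against BY4741 only.

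Stress genes of the Msn2 and Msn4 response, which protect cells in many unfavourable conditions, were higher in 26 of 30 cases against the deletion strains and 0 were lower. Against BY4741 29 were higher. The median fold was 1.12 and 1.07, beside 0.13 and 0.15 over all genes. HSP12, a membrane-bound stress protein gene, stood at 992, 978 and 947 RPM in ΔU, 127 and 101 RPM in pho4Δ, 202 and 188 RPM in pho84Δ and 146 and 164 RPM in BY4741. The ΔU libraries were close together and all above the controls, with folds of 2.70 ± 0.19 (adjusted p = 3.0e-06) and 2.65 ± 0.13. CYC7, a second cytochrome c gene, rose by 2.24, SOL4 by 2.02 and SPG4, with 0.289 to 1.12 RPM in the deletion strains, by 2.09. The 3 members called against BY4741 but not called again were GRE1, SIP18 and GND2. Of 20 genes of trehalose and glycogen metabolism 15 rose (75%, beside 40.4% of all genes) and 1 fell. In both comparisons 12 of the rises were called. TSL1 and TPS2, of the trehalose synthase complex, rose by 0.96 and 0.67. Heat-shock chaperones stayed near the shares of all genes, with 12 of 26 higher (46.2%) and 4 lower (15.4%), beside 40.4% and 18.3%. Their median was 0.14, beside 0.13. HSP78 and HSP10 of the mitochondrial matrix, the 2 members that rose by 1 or more, rose by 1.34 and 1.01.

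**Figure D4:**
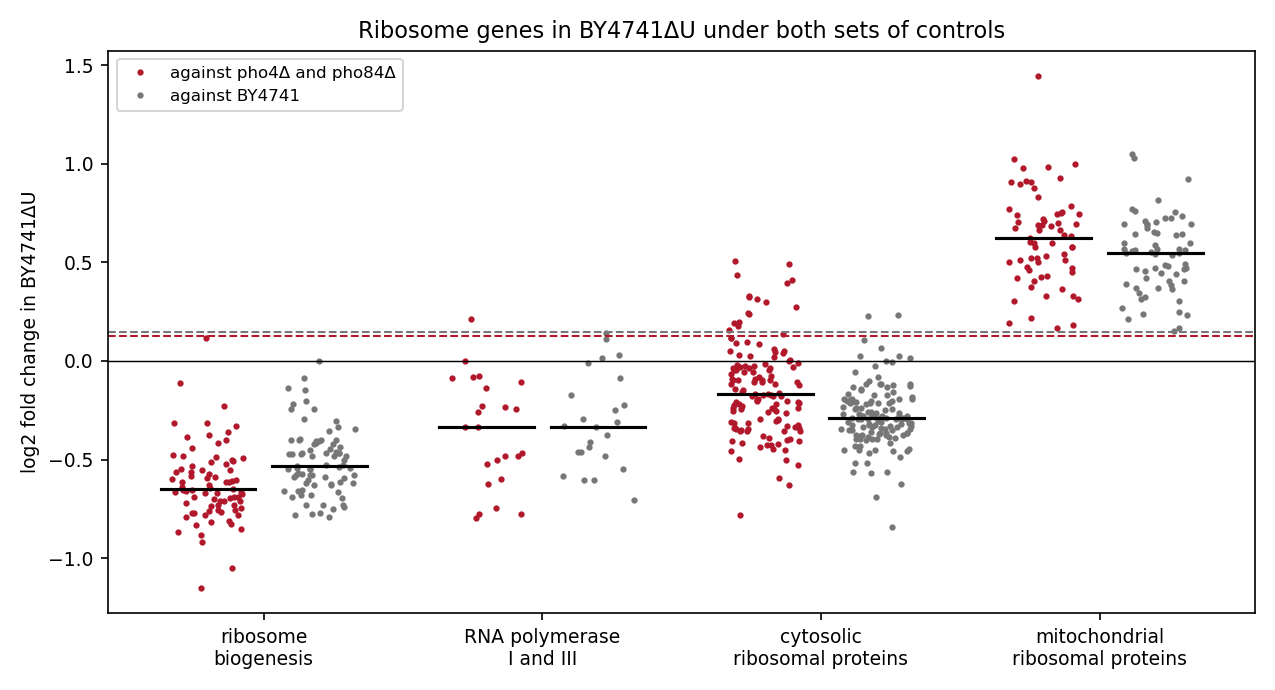
log2 fold change in BY4741ΔU of each gene of 4 groups (points) with the group median (black bar), against pho4Δ and pho84Δ (red) and against BY4741 (grey); dashed lines are the medians of all genes in each comparison. Ribosome biogenesis genes have a median of -0.65 and -0.53, mitochondrial ribosomal proteins one of 0.62 and 0.55.

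Genes for the making of cytosolic ribosomes fell nearly without exception. Of 80 ribosome biogenesis genes, which encode nucleolar factors that process and assemble pre-ribosomes, 77 fell and 0 rose against the deletion strains. Against BY4741 74 fell, and all 74 were called again. The changes were modest, with 2 of the 77 falling by 1 or more. DBP2, an RNA helicase gene, stood at 194, 186 and 161 RPM in ΔU, 437 and 452 RPM in pho4Δ, 347 and 375 RPM in pho84Δ and 287 and 339 RPM in BY4741, with folds of -1.15 ± 0.10 and -0.79 ± 0.08. HAS1, another helicase gene, and SDA1, needed for maturation of the large subunit, fell by 1.05 and 0.92 against the deletion strains and by 0.77 and 0.74 against BY4741. The median fold of the list was -0.65 against the deletion strains and -0.53 against BY4741, beside 0.13 and 0.15 over all genes. The promoter words known from such genes, AAAATTTT (the RRPE) and GATGAG (the PAC), were present on either strand 100 to 500 bases before the start codon in 60 and 57 of the 80 genes, and in 10.9% and 23.5% of all 5550. Of the 20 genes without AAAATTTT in this window all 20 fell, as did 57 of the 60 with it.

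Subunits of RNA polymerases I and III, which transcribe ribosomal and transfer RNA, moved the same way: 17 of 24 fell and 1 rose against the deletion strains, and all 17 had fallen against BY4741. RPA190 and RPA135, the largest subunits of polymerase I, had 325, 347 and 335 and 340.2, 348 and 332 RPM in ΔU against 551 to 607 and 551 to 607 RPM in the deletion strains. Both fell by 0.78 (adjusted p = 2.9e-06 for each). The 1 rise was RPC10 (0.21), which was not called under TMM scaling, and RPC82 of polymerase III fell by 0.80.

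Cytosolic ribosomal protein genes held only in part. Against BY4741 83 of 133 fell and 2 rose. Against the deletion strains 56 fell and 7 rose, of which 54 falls were called in both, so that 29 falls were not called again. Their median was -0.17 against the deletion strains and -0.29 against BY4741, beside 0.13 and 0.15 over all genes, and the deletion strains themselves stood -0.12 from BY4741 with 0 of 133 members called. RPL9A had 1519, 1272 and 1312 RPM in ΔU against 2173 to 2592 RPM in the deletion strains and 2534 and 1907 RPM in BY4741 (folds -0.78 and -0.69). RPS28B and RPS2 fell by 0.63 and 0.60. The count was sensitive to scaling and to single libraries: 72 fell and 3 rose under TMM scaling (105 and 0 against BY4741), and leaving out 1 library at a time gave 40 to 72 falls and 3 to 15 rises. Most of these genes come in pairs with near-identical sequence, between which reads may be split, so single members are uncertain.

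Mitochondrial ribosomal proteins went the other way. Of 65 genes 64 rose and 0 fell against the deletion strains, 62 rose against BY4741, and all 62 rose in both. RSM19 had 38.9, 35.3 and 38.00 RPM in ΔU against 11.7 to 14.3 RPM in the deletion strains (1.44 ± 0.08, adjusted p = 9.5e-07), and MRPL44 and MRPL31 rose by 1.02 and 1.00. Under TMM scaling 61 rose and 0 fell.

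Parts of other biosynthetic pathways fell. Of 20 genes of purine synthesis 12 fell (60%, beside 18.3% of all genes) and 1 rose, and 9 of the falls were also called against BY4741. IMD4, an IMP dehydrogenase gene, stood at 291, 259.6 and 247 RPM in ΔU and 518 to 597 RPM in the deletion strains (-1.04); IMD2, its paralog, rose by 0.64, and such paralogs may share reads. GUA1 and ADE17 fell by 0.76 and 0.72. MIS1, the mitochondrial C1-tetrahydrofolate synthase, stood at 197, 216 and 210.2 RPM in ΔU against 457 to 488 RPM in the deletion strains. Its fold was -1.17 ± 0.05 (limma adjusted p = 3.0e-07), and -1.03 against BY4741. The one-carbon list as a whole was mixed, with 7 of 17 lower (41.2%) and 4 higher (23.5%), beside 18.3% and 40.4% of all genes. Of 15 genes of inositol and phospholipid synthesis 8 fell (53.3%, beside 18.3% of all genes) and 2 rose (13.3%, beside 40.4%). INO1, for inositol phosphate synthase, was at 8.62, 11.4 and 21.1 RPM in ΔU against 31.4 to 62.4 RPM in the deletion strains (-1.67 and -1.42), and ITR1, the inositol transporter, fell by 0.78. ATF2 and EEB1, which make esters, had 15.4, 16.9 and 8.97 and 34.8, 37.1 and 44.2 RPM in ΔU against 39.6 to 47.2 and 81.2 to 99.3 RPM. PLB2, a phospholipase B gene, fell by 1.37 against the deletion strains.

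Some of the genes that are normally silenced by oxygen and heme fell under both sets of controls. TIR1, a cell wall mannoprotein of anaerobic cells, stood at 1.51, 1.398 and 0.873 RPM in ΔU, 15.8 and 12.9 RPM in pho4Δ, 7.82 and 8.79 RPM in pho84Δ and 21.8 and 12.2 RPM in BY4741. ANB1, the hypoxic form of translation factor eIF5A, stood at 2.51, 2.07 and 2.301 RPM in ΔU against 10.7 to 15.9 RPM in the deletion strains, and AAC3, the anaerobic ADP/ATP carrier, at 6.21, 7.55 and 4.998 RPM against 13.3 to 17.4 RPM. All ΔU libraries were below all controls for the 3 genes. Their folds were -2.41, -2.07 and -1.17 against the deletion strains and -2.95, -2.26 and -1.43 against BY4741. Of the 22 hypoxic genes tested 12 fell (54.5%) and 6 rose (27.3%), beside 18.3% and 40.4% of all genes. In both comparisons 8 of the falls and 6 of the rises were called. Under TMM scaling 13 fell and 4 rose against the deletion strains. The list leaned to falls, but its members did not all share a direction: against the deletion strains 3 members fell and 2 rose by 1 or more. The largest rise was 2.24, near the size of the largest fall.

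Early meiotic genes, which Ume6 represses in growing cells, rose in part. Of 19 tested members 10 rose (52.6%, beside 40.4% of all genes) and 0 fell, all 10 also rose against BY4741, and each of the 10 had a higher mean in ume6Δ than in ΔU. Under TMM scaling 8 rose and 1 fell against the deletion strains, and 6 rose against BY4741 in place of 11. HOP1, an axis protein of meiotic chromosomes, stood at 6.005, 6.21 and 8.01 RPM in ΔU, 1.29 to 3.44 RPM in the deletion strains and 179, 188 and 193 RPM in ume6Δ. SPO1 had 12.4, 10.4 and 9.12 RPM in ΔU against 2.35 to 4.02 RPM in the deletion strains (1.45), and RIM4 rose by 1.38. UME6 itself had 52.9, 65.2 and 66.6 RPM in ΔU and 65.7 to 73.7 RPM in the deletion strains, a fold of -0.21 ± 0.08 that was not called (adjusted p = 0.055) but was called under TMM scaling (-0.32) and in 5 of the 17 other settings. It was not called against BY4741 (0.01).

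Among the PHO genes the result depended on which strain was the control. With PHO84 at 1 or 2 reads in each library of both deletion strains, its 250.4, 388 and 209.9 RPM in ΔU could only be set against BY4741, where it stood at 136 and 130.3 RPM. That fold of 1.03 ± 0.67 was not called (adjusted p = 0.21), although both BY4741 libraries were below every ΔU library. Its standard error came from the fit of 12 libraries, which includes ume6Δ at 8.41, 83.8 and 89.8 RPM. Part of the PHO84 promoter is shown with the core of the Pho4 site, CACGTG, in capitals.
PHO84, XIII:26184-26239, minus strand: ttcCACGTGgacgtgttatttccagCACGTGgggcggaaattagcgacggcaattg
The core was in the window of 17 of 23 PHO regulon genes and of 5.71% of all 5550. SPL2, whose product lowers low-affinity uptake of phosphate, was at 19.6, 27.7 and 17.3 RPM in ΔU, 0.606 and 1.04 RPM in pho4Δ, 6.96 and 6.44 RPM in pho84Δ and 10.3 and 7.03 RPM in BY4741. It rose in both comparisons, by 2.57 ± 0.51 against the deletion strains and 1.21 ± 0.21 against BY4741, and every control library was below every ΔU library.

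Several of the other PHO genes differed between the deletion strains. PHO5, the secreted acid phosphatase, stood at 276 and 261 RPM in pho84Δ, 9.998 and 10.5 RPM in pho4Δ, 13.7, 21.3 and 13.01 RPM in ΔU and 14.7 and 11.3 RPM in BY4741. ΔU thus lay near BY4741 and between the 2 deletion strains, with a fold of 0.57 against pho4Δ alone and -4.02 against pho84Δ alone. For PHO89, the sodium-coupled phosphate transporter, ΔU also lay between the deletion strains but stood above BY4741. PHO89 had 7.47, 6.26 and 2.94 RPM in ΔU and 31.8 and 33.6 RPM in pho84Δ. Its levels were 1.14 and 0.751 RPM in pho4Δ and 1.03 and 0.933 RPM in BY4741. It rose against BY4741 (1.65 ± 0.29, adjusted p = 3.9e-04), and its pooled fold was -0.37 ± 0.99 (adjusted p = 0.76). GIT1, the glycerophosphoinositol transporter, was at 4.07, 4.47 and 4.602 RPM in ΔU, 16.5 and 12.2 RPM in pho84Δ and 2.35 and 2.37 RPM in pho4Δ. VTC3 and VTC4, of the vacuolar polyphosphate polymerase, were called against the deletion strains only. VTC3 stood at 168, 233 and 161 RPM in ΔU, 79.4 and 85.3 RPM in pho4Δ, 147 and 135 RPM in pho84Δ and 182 and 164 RPM in BY4741, so that pho4Δ stood lowest. Reads of PHO11 and PHO12, which are near-identical, may be exchanged.

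Of the 23 PHO regulon genes 13 rose and 2 fell against the deletion strains, beside 40.4% of all genes that rose, and PHO84 is among the 13; 12 rose and 2 fell against BY4741; 10 rises and both falls were shared. Against pho4Δ alone 19 rose and 2 fell, and against pho84Δ alone 11 rose and 8 fell. Members that rose against each of the 3 control strains included GPP2 (a glycerol phosphatase, 1.44), PHO8 (vacuolar alkaline phosphatase, 0.78), DDP1 (polyphosphatase, 0.77), VTC1 (0.72) and PHO81 (inhibitor of the Pho85 kinase, 0.43). VTC5 fell by 0.44, and KCS1, the inositol hexakisphosphate kinase, fell by 0.33 against the deletion strains and by 0.20 against BY4741. PHO4 stood at 63.2, 88.3 and 85.6 RPM in ΔU and 75.02 and 84.7 RPM in pho84Δ, and the groups overlapped.

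**Figure D5:**
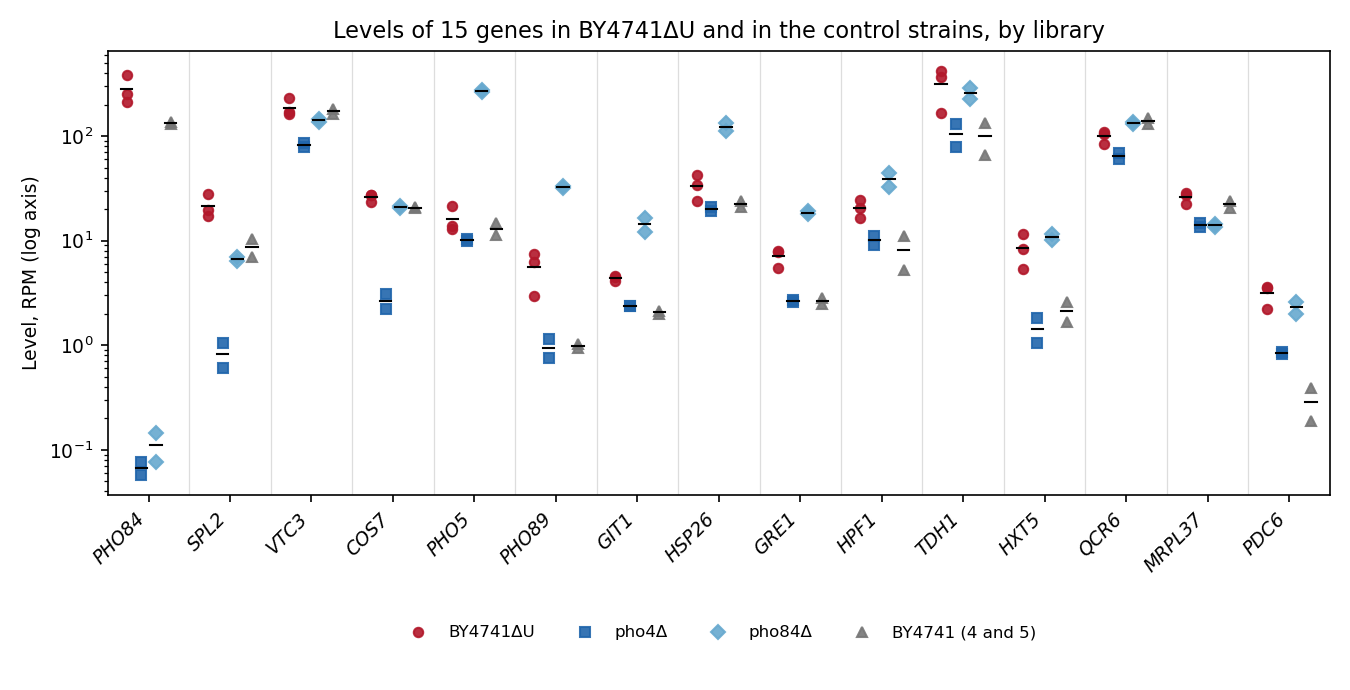
RPM on a log axis of 15 genes in each library of BY4741ΔU (circles), pho4Δ (squares), pho84Δ (diamonds) and BY4741 (triangles), with the mean of each strain as a bar. PHO5, PHO89, GIT1, HSP26, GRE1 and HPF1 are highest in pho84Δ, SPL2, VTC3 and COS7 lowest in pho4Δ, and ΔU lies between the deletion strains for PHO5, PHO89, GIT1, HSP26, GRE1 and HPF1.

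In all, 327 genes called against BY4741 were not called again, 260 of the rises and 67 of the falls. Of these, 307 kept the sign of their fold and 48 had ΔU libraries that did not overlap the deletion strains. Only 6 of the 327 were among the 14 genes that separated the deletion strains from BY4741: PHO89, GIT1, GRE1, HPF1, HSP26 and QCR6. HSP26, a small heat-shock protein gene, was at 134 and 112 RPM in pho84Δ, 20.8 and 19.2 RPM in pho4Δ, 24.1, 42.3 and 33.96 RPM in ΔU and 23.7 and 21.1 RPM in BY4741. GRE1, a stress gene, was at 17.9 and 19.2 RPM in pho84Δ, 2.73 and 2.598 RPM in pho4Δ, 5.48, 7.83 and 7.93 RPM in ΔU and 2.84 and 2.49 RPM in BY4741. HPF1, a cell wall glycoprotein gene, was likewise highest in pho84Δ, with ΔU between the deletion strains. QCR6, a subunit of respiratory complex III, also had ΔU between the deletion strains, but here pho4Δ and not pho84Δ stood apart from BY4741. It was at 68.8 and 60.1 RPM in pho4Δ, 83.2, 109.9 and 105 RPM in ΔU and 131 to 149 RPM in pho84Δ and BY4741.

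Named after their values were seen, other large rises against BY4741 that were not called again were TDH1, HXT5, LEE1 and ROF1. TDH1, a glyceraldehyde phosphate dehydrogenase gene, stood at 167, 366 and 419.6 RPM in ΔU, 288 and 226 RPM in pho84Δ and 65.2 to 134 RPM in pho4Δ and BY4741; reads may be exchanged with TDH2 and TDH3. HXT5, a hexose transporter gene, was at 5.38, 11.7 and 8.25 RPM in ΔU, 11.5 and 10.1 RPM in pho84Δ and 1.04 to 2.59 RPM in the others. For both genes ΔU overlapped pho84Δ and lay above pho4Δ. GSY1, a glycogen synthase gene, was a fall not called again (-0.62 against BY4741 and -0.09 against the deletion strains): the deletion strains stood at 32.9 to 36.6 RPM, below the 55.3 and 46.3 RPM of BY4741.

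The other 8 of the 14 genes that separated the controls were as follows. PHO4, PHO84, SPL2 and PHO5 are described above. PDC6, a pyruvate decarboxylase gene at 2.22 to 3.63 RPM in ΔU, rose in both comparisons, but against the deletion strains the call was lost in 8 of 18 alternative settings, pho84Δ alone included. COS7, a subtelomeric gene at 2.197 and 3.06 RPM in pho4Δ and 20.4 to 27.6 RPM in the 3 other strains, was called in both comparisons (1.60 and 0.32). The first of these rested on pho4Δ. It was lost in 11 of 18 alternative settings and the fold was 0.30 against pho84Δ alone. MRPL37, a mitochondrial ribosomal protein gene, was called against the deletion strains only (0.83), with 28.3, 27.3 and 22.2 RPM in ΔU. It had 13.5 to 14.8 RPM in the deletion strains, 17.5, 16.7 and 15.4 RPM in ume6Δ and 20.4 and 23.9 RPM in BY4741. YGR109W-B, a row for the Ty3 retrotransposon, had 11, 3 and 2 reads in ΔU and 40 and 4 reads in BY4741. It stood at 30.1 to 34.2 RPM in the deletion strains and at 39.8, 38.4 and 43.2 RPM in ume6Δ. For YGR109W-B, ΔU and BY4741 were thus both far below the strains that lack PHO4, PHO84 or UME6, and the cause was not tested. The row of the second Ty3 copy, YIL082W-A, stood at 44.9 to 49.3 RPM in ΔU and 55.7 to 61.9 RPM in the deletion strains, and as reads of the copies may be exchanged, both rows are uncertain.

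The 780 genes called against the deletion strains only were 438 rises and 342 falls. The 7-library comparison has 4 control libraries in place of 2, and how much of this count follows from that was not tested. The proteasome list shows the size of these changes. Of 33 members 18 rose against the deletion strains (54.5%, beside 40.4% of all genes). Against BY4741 9 of 33 rose, beside 36.5% of all genes. No rise was above 0.41 against the deletion strains, and 0 members fell in either comparison. Under TMM scaling 7 rose and 2 fell against the deletion strains, and against BY4741 the lean turned, with 2 rises and 6 falls. BOP2, the largest rise after PHO84 under the rule by which genes were named, was called in both comparisons. It stood at 107, 92.7 and 80.7 RPM in ΔU, 7.195 and 2.94 RPM in pho4Δ, 5.31 and 6.78 RPM in pho84Δ and 7.69 and 15.5 RPM in BY4741 (folds 3.90 ± 0.22 and 2.97 ± 0.30). FMP23 and YER053C-A, which also rank among the 12 largest rises, rose by 2.70 and 2.73 against the deletion strains and by 2.24 and 3.03 against BY4741. BDH2, a putative alcohol dehydrogenase gene, stood at 42.7, 66.5 and 59.6 RPM in ΔU, 22.8 and 21.4 RPM in pho84Δ and 5.91 and 6.81 RPM in pho4Δ, and its folds were 2.11 against the deletion strains and 2.81 against BY4741.

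The other lists are given by their counts, beside the 40.4% of all genes that rose and 18.3% that fell against the deletion strains. Against the deletion strains 6 of 16 zinc genes, FET4 again among them, fell and 3 rose, with the transporter gene ZRT2 lower by 0.89. Under TMM scaling 9 fell and 2 rose, and against BY4741 the 3 rises and 2 falls became 2 and 7. Of 13 genes of the pentose phosphate pathway 7 rose and 4 fell, with a rise of 1.89 in NQM1 and a fold of -0.86 in RKI1. Of 30 ergosterol genes 10 rose and 5 fell, of 23 mating genes 9 rose and 8 fell, of 19 hexose transport genes 8 rose and 3 fell, and of 34 genes of glycolysis, fermentation and glycerol 14 rose and 4 fell. Of 16 calcineurin and calcium genes 6 rose and 2 fell, of 9 lysine genes 3 rose and 2 fell, of 7 aromatic amino acid genes 4 rose and 1 fell, and of 16 PHO signalling genes 4 rose and 2 fell. Rises outnumbered falls more widely in 2 lists: 8 of 11 COS genes rose and 0 fell (5 and 0 under TMM scaling), and 10 of 15 metabolic targets of Ume6 rose and 2 fell under both scalings, with a median of 0.88 beside 0.13 over all genes. Shares of the ergosterol, hexose transport, glycolysis, calcineurin and lysine lists lay within 10 percentage points of those of all genes. Under TMM scaling falls against the deletion strains outnumbered rises for hexose transport (4 and 6), ergosterol (9 and 10) and mating genes (7 and 9), and the PHO signalling list (4 and 4) and the pentose phosphate list (4 and 4) were even, as were the lysine (3 and 3) and aromatic (2 and 2) lists. HIS3, a marker deleted in BY4741 only in part, rose by 0.82 and 0.61.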

How the data were processed

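RNA sequencing libraries were made with a stranded kit from purified mRNA, per the labels' protocols. The authors deposited 1 table of RPM values for 7123 features, and 4 further lines without values were not used. The submitters' processing notes name HISAT2, featureCounts and edgeR; their versions and roles, the build, the annotation and the strand setting are not given in the sources used here. Every value was a whole number of reads within 0.01 reads, and the recovered reads entered edgeR and DESeq2 as alternatives only. BY4741 numbers 4 and 5 were placed in the second part of the series from their numbering and the design text.

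limma 3.58.1 (R 4.3.3) was fitted to log2(RPM + 1) with a trended prior. Genes needed at least 1 RPM in 3 of the 7 libraries; comparisons with BY4741 used all 12 libraries, with 1 RPM in 2. Calls were made at a Benjamini-Hochberg adjusted p under 0.05. The fit was tested on simulated data. Alternatives were the pseudocount, no filter, TMM, edgeR 4.0.16, DESeq2 1.42.0, a replicate block, each deletion strain alone and leaving out each library. Named genes were PHO84, SPL2, UME6, PHO4 and KCS1, the 12 largest rises and falls, the 6 largest of each against BY4741, and up to 3 genes per list, with other list members. The members and gene lists were chosen with earlier results of these data known. Promoter sequences came from RefSeq, build R64.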

Additional observations from a re-analysis of the deposited data

Results flagged for a closer look

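INO2, which encodes an activator of phospholipid synthesis genes, stood at 44.9 RPM in pho4Δ number 2 and at 39.0, 38.9 and 39.9 RPM in the other 3 libraries of the deletion strains. The gap between pho4Δ number 2 and its nearest neighbour was past Dixon's 95% critical value for 4 samples, which chance exceeds in about 1 of 20 groups. The criterion was applied to 117 named genes and met by this 1 alone. The chance rate holds for 4 samples of 1 population, whereas these libraries come from pho4Δ and pho84Δ. Where the strains differ the values form pairs and 1 library can hardly stand out. The count can therefore not be set against that rate.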

How the results depend on the processing

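The count of genes called against the deletion strains, 3346, lay between 2868 (pho84Δ alone) and 3402 (12 libraries fitted) in all settings tried, and between 3034 and 3341 when 1 library was left out. The count against BY4741, 2904, ranged from 2193 (5 libraries fitted) to 2943, and the 2566 shared calls from 2074 to 2588; leaving out 1 library gave 2198 to 2943 and 2099 to 2579. The share of falls moved with scaling: 1613 genes fell with TMM, 1615 with edgeR and 1668 with DESeq2, against 1043. The contrast of the deletion strains with BY4741, 14 calls, moved to 53 with DESeq2 and 2 with only the 6 libraries, and to between 8 and 205 when 1 library was left out, 205 without BY4741 number 4; the cause was not tested. Of 2103 alternative values for 117 named results, 2064 kept their direction and side of the threshold, 27 were no longer called, 11 became called and 1 changed sign. The changes were in COS7, TKL2, PDC6, IZH4, UME6 and PHO4, and the sign change was PHO4 against pho84Δ alone (-0.028). A replicate block gave 3085 calls. Number 3 exists only in ΔU among the 7 libraries, so this block in effect set ΔU number 3 aside. Same-numbered libraries had correlations of their deviations from -0.20 to 0.17. With 2 libraries per deletion strain these values mirror each other in sign and are few, so they cannot show whether the numbers mark shared batches. No paired analysis was possible against BY4741 because its numbers are not shared with the other strains. At these depths 3 reads corresponded to 0.116 to 0.238 RPM, so counting error was small for well-expressed genes. Genes near or below 1 RPM in a group, such as SPG4 in the deletion strains, rest on few reads, and their counting error was not small.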

Other observations

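Some of the steep rises fell outside the gene lists and were chosen after their values were seen. PDR5, which encodes the main multidrug efflux pump of the plasma membrane, stood at 2076, 2374 and 2136 RPM in ΔU, 434 and 499.6 RPM in pho4Δ, 502 and 484 RPM in pho84Δ and 447 and 441 RPM in BY4741. The folds were 2.19 ± 0.07 against the deletion strains and 2.30 ± 0.07 against BY4741, and no library of a control came near the ΔU range. PDR15, a paralog of PDR5 with which reads may be exchanged, rose by 2.20 and 2.39.

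SNZ1 and SNO1, a pair of genes for vitamin B6 synthesis that are read from a shared promoter region, rose together. SNZ1 stood at 2201, 1904 and 1618 RPM in ΔU, 610.0 and 229.7 RPM in pho4Δ, 458 and 526 RPM in pho84Δ and 468 and 829 RPM in BY4741. SNO1 stood at 318, 266 and 256 RPM in ΔU and 37.1 to 85.7 RPM in the deletion strains. Against the deletion strains they rose by 2.14 and 2.13, and against BY4741 by 1.60 and 1.81. As in the arginine genes, pho4Δ number 1 was above pho4Δ number 2 for SNZ1.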
